A study of Mus musculus with 14 samples.

Results

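The 33 genes described here encode the contractile proteins of cardiac and smooth muscle and the actin-binding proteins related to them. They were chosen by name, as sarcomere, smooth muscle and actin-binding genes, and all 33 were measured, among 19938 genes in all. The genes were followed in mouse embryonic stem (ES) cells that differentiated as embryoid bodies, aggregates in which the first mesoderm forms. The cells carried ER71 (the protein of Etv2), GATA2 and, per the titles and genotype labels, Scl (the protein of Tal1) under doxycycline control, and the series asks what these blood and endothelial factors change on the way to the hemangioblast. The design text counts Scl in without naming it, and the sample descriptions leave it out.

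Each of the 14 samples was measured on 1 array. Doxycycline at 1 µg/ml was present from day 2 of differentiation in the induced cells. There was 1 induced array at 6 h (day 2.25), and there were 3 at 12 h (day 2.5) and 3 at 24 h (day 3). Untreated control cells of the same line were taken on the same days (1, 3 and 3 arrays). The labels give the controls the genotype wild-type, although their source is the untreated inducible line. Replicates 1 and 2 came from the line iEGS and replicate 3 from the line iB1, so that line and replicate number 3 cannot be told apart. All cells had been kept on PMEF feeder cells before differentiation in medium with serum and ascorbic acid. A control that receives doxycycline but lacks the factors was not analysed here, and the effects of factors and drug cannot be told apart. In RNA of whole embryoid bodies, fewer cells of a type and less RNA per cell cannot be told apart.

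Muscle contraction rests on myosin filaments that pull on actin filaments. In heart and skeletal muscle these are ordered in sarcomeres, where troponin and tropomyosin on the actin filament make the pull depend on calcium. In smooth muscle the switch is a phosphate placed on the regulatory light chain of myosin by a kinase, and calponin and caldesmon bind the actin filament. Many contractile genes are controlled by serum response factor (SRF), which binds a short DNA element named the CArG box. Some of them, such as Actc1, Acta2 and Tagln, are also expressed at low levels in early mesoderm and in fibroblasts, long before any muscle forms.

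Promoter sequences are shown because 3 of the genes that fell hold a CArG box close to their start. RefSeq promoter windows (build GRCm38.p6, from 250 bases before the annotated start to 50 bases after it) were found for 30 of the 33 genes, 35 windows in all, and not for Tagln, Myh11 and Actg2. A CArG box, searched on both strands, was in 6 of the 35 windows (17.1%) and in 1.63% of all 32851 RefSeq promoter windows of mouse genes. Only exact matches to CC, 6 bases of A or T, and GG were counted. Boxes with a mismatch were not searched, so a window without a match may still hold one. The 6 genes are Actc1, Myl7, Myl9, Myl3, Cnn2 and Vcl. Shown first are the 250 bases before the start of the 3 of them that passed the test after 24 h, Actc1 (chr2:114052876-114053125, minus strand), Myl7 (chr11:5898783-5899032, minus strand) and Myl9 (chr2:156775214-156775463, plus strand), 5′ to 3′ along the gene, with the CArG box in capitals.
Actc1: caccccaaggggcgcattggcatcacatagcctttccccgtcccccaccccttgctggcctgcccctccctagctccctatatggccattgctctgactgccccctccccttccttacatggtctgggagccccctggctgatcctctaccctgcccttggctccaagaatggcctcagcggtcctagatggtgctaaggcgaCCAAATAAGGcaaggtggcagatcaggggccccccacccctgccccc
Myl7: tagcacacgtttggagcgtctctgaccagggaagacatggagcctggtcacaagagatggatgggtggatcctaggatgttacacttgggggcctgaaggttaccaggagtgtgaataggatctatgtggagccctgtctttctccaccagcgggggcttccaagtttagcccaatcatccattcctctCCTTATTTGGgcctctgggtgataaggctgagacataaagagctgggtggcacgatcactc
Myl9: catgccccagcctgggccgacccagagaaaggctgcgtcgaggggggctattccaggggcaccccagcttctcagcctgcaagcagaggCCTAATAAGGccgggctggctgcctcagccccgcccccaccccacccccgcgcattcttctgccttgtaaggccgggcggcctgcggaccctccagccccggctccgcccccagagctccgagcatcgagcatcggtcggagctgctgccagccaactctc

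Counted from the annotated start, the first base of the box is at -47 in Actc1, at -61 in Myl7 and at -161 in Myl9. For the other holders the box is shown with 10 bases on each side, from Myl3 (chr9:110763583-110763612, plus strand), Cnn2 (chr10:79988534-79988563, plus strand) and Vcl (chr14:20929161-20929190, plus strand), to compare the boxes themselves.
Myl3: gagccaatgcCCTTTTATGGccctgtccct
Cnn2: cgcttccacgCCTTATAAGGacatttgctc
Vcl: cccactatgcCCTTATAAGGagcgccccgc

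Of the other motifs searched on both strands, the MCAT element CATTCC, which TEAD factors bind, was in 16 of the 35 windows (45.7%) against 14.7% of all windows. The motif TATAAA was in 4 of 35 (11.4%) against 13.6% of all. In Myl7 the MCAT element starts at -70, just upstream of the CArG box and without overlap. A motif match describes the sequence and is not a measured binding site.

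Values are log2 expression values, so that a difference of 1 is 2-fold. Tests used limma across all 19938 genes, and a gene is said to have risen or fallen where its Benjamini-Hochberg adjusted p was under 0.05. Errors of changes are standard errors, with 3 arrays per group. Counts at an unadjusted p under 0.05 are also given. Except for the line test, the share of all genes at that threshold was not taken, so these counts do not show an excess over it. Etv2, Gata2 and Tal1 were higher in induced cells at 12 h and 24 h, by between 1.94 (Etv2 at 24 h) and 4.44 (Gata2 at 12 h). The induced 24 h array of replicate 3 stood apart. Its mean correlation with the other arrays was 0.966 and that of each other array 0.976 or higher, and the induced 24 h arrays also differed more from each other (root mean square difference between 2 arrays 0.371 to 0.615) than those of the other groups (0.236 to 0.416). The calls at 24 h of the 33 genes and of the listed genes outside them were therefore also made without that array, and are given where they change. Of the 33 genes 10, among them the sarcomere genes Myh6, Myh7, Myl2 and Ttn, had a mean below the 40th percentile of all genes (4.95), taken here as low signal. The 9 of these that passed no test lay between 3.71 and 5.40 on all 14 arrays.

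After 6 h of induction the contractile genes had moved little. The 33 differences between the induced and the control array of day 2.25 lay between -0.30 (Actc1) and 0.38 (Tnni1), with 11 below 0 and 22 above. None reached 2-fold, against 0.221% of all genes at least 2-fold higher and 0.135% at least 2-fold lower. With 1 array per group there is no replicate check. The same genes differed by -0.31 to 0.50 between the control arrays of day 2.25 and day 2.5 of replicate 1, a span of the same order.

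After 12 h of induction 1 contractile gene had fallen, Actc1, which encodes the actin of the cardiac sarcomere and is also an early mesoderm transcript. Its value was 8.0, 7.63 and 7.82 on the day 2.5 control arrays of replicates 1, 2 and 3 and 6.98, 6.54 and 6.19 after 12 h. All induced arrays were below all control arrays, and the fall was 1.25 ± 0.214, or 2.37-fold (limma, adjusted p = 0.00584). Of the 33 genes 1 fell and 0 rose in limma (3.03% lower), against 0.577% of all genes lower and 0.813% higher (1.39% in either direction). At an unadjusted p under 0.05 the counts were 3 lower and 0 higher. The call of Actc1 was lost without replicate 2 (adjusted p = 0.187) and without replicate 3 (adjusted p = 0.128), with changes of -1.33 and -1.06.

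Cnn1, the smooth muscle calponin, was at 8.39, 8.30 and 8.44 in the day 2.5 controls and at 7.52, 7.94 and 7.82 after 12 h. The groups did not overlap, and the difference of -0.62 ± 0.174 did not pass (limma adjusted p = 0.147), but passed with the replicate number as a block (adjusted p = 0.0319). For Tagln, the actin-bundling protein transgelin, the difference was -0.55 ± 0.255, with overlapping groups, and for Myl9 it was -0.37 ± 0.18. Arrays of the 2 groups did not overlap, all lower, for 5 of the 33 genes (15.2%), against 7.72% of all genes, and for 0 all higher, against 6.78%. The median difference of the 33 genes was -0.11 and that of all genes -0.01.

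**Figure D1:**
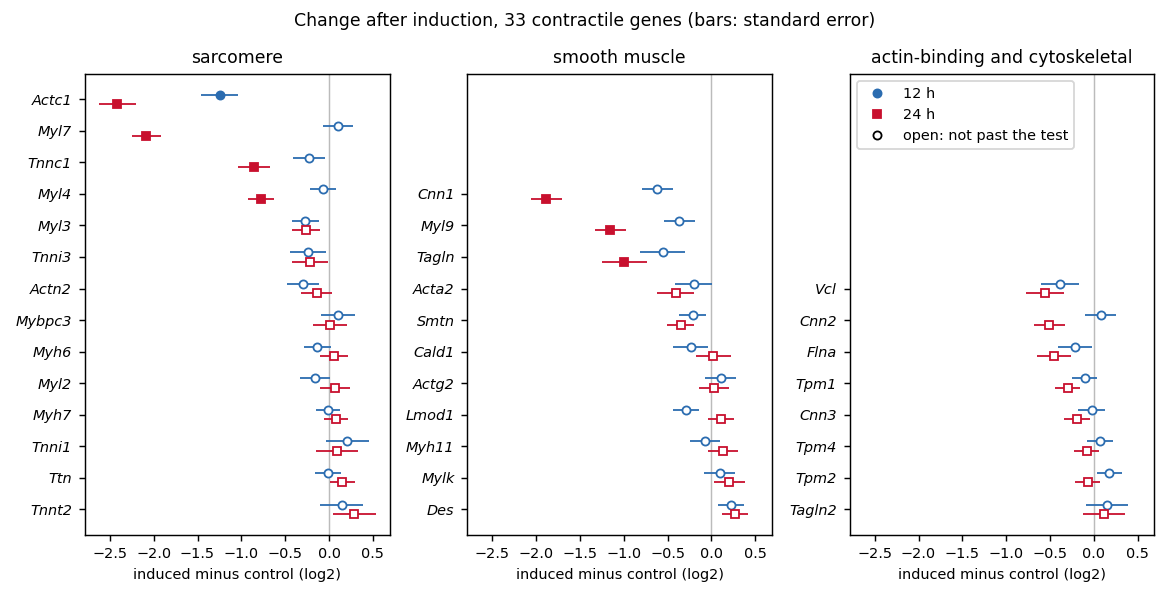
Change in log2 expression after 12 h (blue circles, against control day 2.5) and 24 h (red squares, against control day 3) of induction for the 33 contractile genes in 3 role classes; bars are limma standard errors, with 3 arrays per group, and open symbols mark changes that did not pass the test. At 24 h, 4 sarcomere genes and 3 smooth muscle genes lie at -0.78 or lower with filled symbols, and at 12 h Actc1 does.

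After 24 h, 7 of the 33 genes had fallen (21.2%) and 0 had risen in limma, against 3.43% of all genes lower and 2.03% higher (5.46% in either direction). At an unadjusted p under 0.05, 11 were lower and 0 higher, with no share of all genes taken at that threshold. The 7 were Actc1, Myl7, Tnnc1 and Myl4 of the sarcomere class (4 of 14) and Cnn1, Myl9 and Tagln of the smooth muscle class (3 of 11), while 0 of 8 actin-binding and cytoskeletal genes passed (3 lower at an unadjusted p under 0.05). The median change was -0.14 over the 33 genes and 0.00 over all genes, and 4 of the 7 falls were of 2-fold or more. For 13 of the 33 genes (39.4%) all induced arrays were below all control arrays, against 10.9% of all genes, and for 0 they were all above, against 7.60% of all genes. Without the induced array of replicate 3, 6 genes fell, and Tagln was lost (-0.87, adjusted p = 0.119).

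Among the actin and troponin genes of the sarcomere, Actc1 was at 8.12, 8.16 and 8.73 on the day 3 control arrays of replicates 1, 2 and 3 and at 5.70, 6.13 and 5.94 after 24 h. The fall of 2.41 ± 0.214, or 5.33-fold, was the largest among the 33 genes (limma adjusted p = 5.63e-06), and the call held in each of 15 fits that left out an array or a replicate number, with changes of -2.61 to -2.22. Tnnc1, which encodes the calcium-binding troponin C of heart and slow muscle, was at 6.69, 6.80 and 6.53 in the controls and at 5.57, 5.82 and 6.06 after 24 h. It fell by 0.86 ± 0.18 (limma adjusted p = 0.00961), and the induced arrays lay below the controls by 1.13 in replicate 1, 0.98 in replicate 2 and 0.47 in replicate 3. The call of Tnnc1 was lost without replicate 2 (adjusted p = 0.170), without replicate 3 (0.0547) and without the day 3 control of replicate 2 (0.0537).

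Tnni3, the cardiac inhibitory troponin I, was at 6.75, 6.10 and 6.51 in the day 3 controls and at 6.50, 5.95 and 6.28 after 24 h. Each induced array was a little below its control, but the replicates differed more than the groups, and the change of -0.21 ± 0.205 did not pass (95% interval -0.65 to 0.23). On day 2.5 its controls were at 6.25, 6.72 and 6.10 and the 12 h arrays at 6.21, 5.96 and 6.17, with overlap. Tnnt2, the cardiac troponin T and an early marker of cardiomyocytes, had a difference of 0.29 ± 0.242 at 24 h and did not pass either (95% interval -0.23 to 0.81).

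Both atrial myosin light chain genes fell at 24 h. Myl7, the regulatory light chain of atrial and embryonic heart myosin, was at 5.37, 5.49 and 5.84 in the day 2.5 controls and had reached 7.14, 7.08 and 7.24 in the day 3 controls. It was at 5.43, 5.82 and 5.76 after 12 h of induction and at 4.79, 5.17 and 5.24 after 24 h. In the controls it had thus risen by 1.58 ± 0.169, or 3.00-fold (limma adjusted p = 0.000341), and in the induced cells it lay 2.08 ± 0.169 below the day 3 control, or 4.23-fold (limma adjusted p = 2.41e-06). The induction effect at 12 h was 0.10 ± 0.169 and did not pass (adjusted p = 0.999). The effects at 12 h and 24 h differed by -2.18 ± 0.238 (limma adjusted p = 0.00107).

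The 24 h fall of Myl7 held in the same 15 fits (-2.17 to -1.94). Its rise in the controls lost its call without replicate 2 (1.58, adjusted p = 0.0790), and its change of effect without replicate 2 (adjusted p = 0.121) and without replicate 3 (0.0613). Between 12 h and 24 h of induction Myl7 differed by -0.60 (adjusted p = 0.108), which passed with the replicate block (adjusted p = 0.0217).

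Myl4, the essential light chain of atrial and embryonic muscle, was at 5.31, 5.13 and 5.24 in the day 3 controls and at 4.34, 4.65 and 4.35 after 24 h. All induced arrays were lower, and the fall was 0.78 ± 0.146, or 1.72-fold (limma adjusted p = 0.00419), in a gene of low signal. On day 2.5 its controls were at 4.66, 4.79 and 4.44 and the 12 h arrays at 4.45, 4.51 and 4.73, with overlap. In the controls Myl4 was 0.60 higher on day 3 than on day 2.5 (adjusted p = 0.0945) and Tnnc1 0.83 higher (adjusted p = 0.0520, and 0.0250 with the replicate block). Without replicate 3 the fall of Myl4 at 24 h was not called (-0.72, adjusted p = 0.0922).

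**Figure D2:**
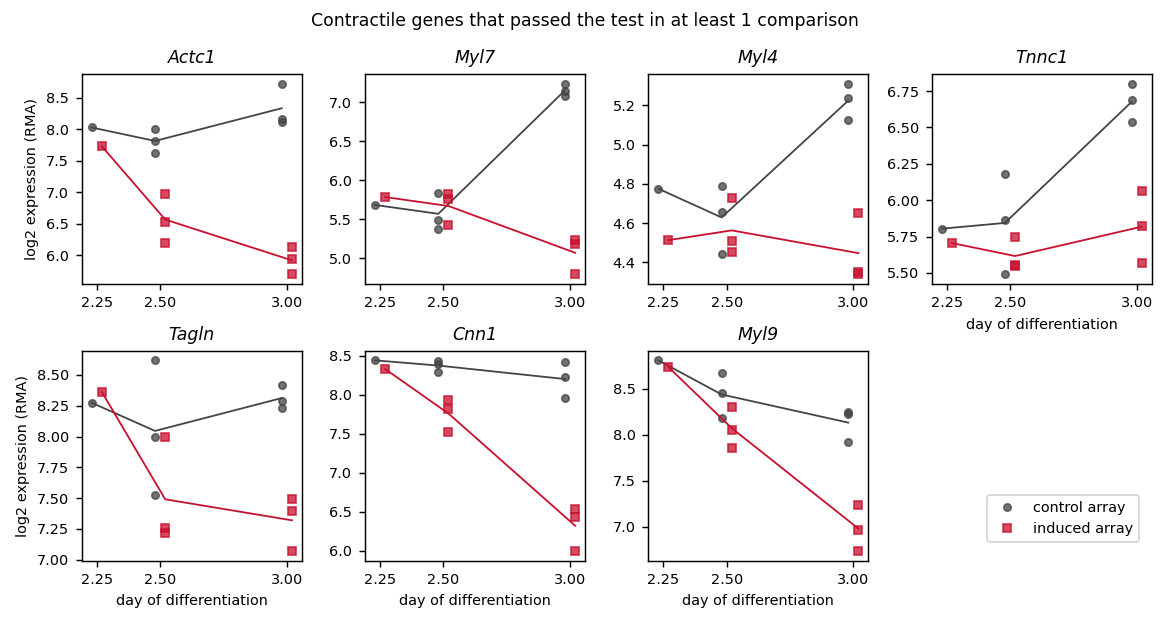
Log2 expression (y axis, its range set for each panel) against day of differentiation (x axis) for the 7 contractile genes that passed the test in at least 1 comparison. Each dark circle is a control array and each red square an induced array, and lines join group means. Myl7, Myl4 and Tnnc1 have their highest values in the day 3 controls, while Cnn1 and Myl9 have their lowest in the induced cells of day 3.

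The other sarcomere genes did not pass at either time. Myl3 and Myl2, the ventricular light chains, differed by -0.26 and 0.07 at 24 h. Myh6 and Myh7, the cardiac myosin heavy chains, differed by 0.06 and 0.08. Actn2, the actinin of the Z line, differed by -0.14, the spring protein gene Ttn by 0.15, Mybpc3, cardiac myosin-binding protein C, by 0.01 and Tnni1, slow skeletal troponin I, by 0.09. The standard errors of these 8 differences were between 0.134 and 0.241, and 6 of the 8 genes were below the 40th percentile. The values do not show that these genes were unchanged.

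In the smooth muscle class the falls were in Cnn1, Myl9 and Tagln. Cnn1 was at 7.96, 8.42 and 8.23 in the day 3 controls and at 6.00, 6.43 and 6.53 after 24 h. The difference was far larger than the spread of either group, and the fall was 1.88 ± 0.174, or 3.69-fold (limma adjusted p = 8.05e-06), and held in the same 15 fits (-2.0 to -1.72). Between the control days Cnn1 differed by -0.17 and did not pass. It fell by 1.44 ± 0.174 between 12 h and 24 h of induction (limma adjusted p = 0.000626), a call lost without replicate 2 (-1.40, adjusted p = 0.0797).

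Myl9, the regulatory myosin light chain of smooth muscle and of non-muscle cells, was at 7.92, 8.25 and 8.23 in the day 3 controls and at 6.96, 7.24 and 6.74 after 24 h. It fell by 1.15 ± 0.18, or 2.22-fold (limma adjusted p = 0.000954), and by 1.09 ± 0.18 between 12 h and 24 h of induction (limma adjusted p = 0.00572). On day 2.5 the controls were at 8.67, 8.18 and 8.45 and the 12 h arrays at 8.30, 8.05 and 7.86, and these groups overlapped. Without replicate 3 neither fall was called (-0.98 with adjusted p = 0.0607, and -1.08 with 0.123), nor was the second without replicate 2 (-1.23, adjusted p = 0.121).

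Tagln was at 8.42, 8.29 and 8.23 in the day 3 controls and at 7.49, 7.40 and 7.07 after 24 h. The fall was 0.99 ± 0.255, or 1.99-fold (limma adjusted p = 0.0340), with all induced arrays below all controls. Its day 2.5 controls were far apart, at 8.62, 7.52 and 8.0, beside 7.99, 7.26 and 7.22 after 12 h, and this spread entered the shared error. The call was lost in 8 of the 15 fits (adjusted p = 0.0522 to 0.339): without replicate 2, without replicate 3, without any of the day 3 controls in turn, without the 24 h arrays of replicates 2 and 3, and without the day 2.5 control of replicate 3. The change itself stayed between -1.08 and -0.87.

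Acta2, the actin of smooth muscle and myofibroblasts, was at 7.13, 6.98 and 7.02 in the day 3 controls and at 6.52, 6.98 and 6.42 after 24 h. The groups did not overlap, but the differences were uneven, at -0.61 in replicates 1 and 3 and -0.01 in replicate 2. The mean difference of -0.41 ± 0.213 did not pass (adjusted p = 0.375, 95% interval -0.86 to 0.05).

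Cald1, the actin-binding caldesmon, was at 8.08, 8.18 and 8.47 in the day 3 controls and at 8.76, 8.04 and 7.99 after 24 h, higher than its control in replicate 1 and lower in the others. Its day 2.5 controls were at 8.03, 7.66 and 7.65 and the 12 h arrays at 7.63, 7.42 and 7.58. The 24 h difference was 0.02 ± 0.2 and did not pass. It was 0.72 higher after 24 h than after 12 h of induction (adjusted p = 0.101, and 0.0328 with the replicate block) and 0.47 higher in day 3 than in day 2.5 controls (adjusted p = 0.660).

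Of the remaining smooth muscle genes, Smtn, the actin-binding smoothelin, differed by -0.35 ± 0.156 at 24 h (adjusted p = 0.281), with all induced arrays below all controls. Des, the intermediate filament desmin, differed by 0.27 ± 0.146 and was above its control in each replicate at both times (by 0.16 to 0.33), without passing (adjusted p = 0.393 at 24 h). Lmod1, an actin filament nucleator, differed by 0.11, Myh11, the smooth muscle myosin heavy chain, by 0.13, Actg2, the enteric actin, by 0.03 and Mylk, myosin light chain kinase, by 0.20.

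Of the 8 actin-binding and cytoskeletal genes 7 had a 24 h difference below 0, against 50.7% of all genes. All induced arrays were below all controls for 4 of the 8, against 10.9% of all genes. The median of the 8 was -0.25, and 0 passed in limma, against 3.43% of all genes lower and 2.03% higher. All 8 were well above the 40th percentile, with means of 7.83 (Cnn2) to 10.78 (Tagln2), whereas the shares of all genes include dim genes. Over the genes not below that percentile the median change was -0.10, against -0.004 over all genes, so expressed genes in general lay somewhat below 0. Tagln2, a transgelin of many cell types, was at 11.11, 10.85 and 10.34 in the day 3 controls and at 10.39, 11.25 and 11.02 after 24 h. It was lower than its control in replicate 1 and higher in the other replicates, so that the difference of 0.12 ± 0.239 was inside the spread. On day 2.5 it was at 10.83, 10.36 and 10.74 in the controls and at 10.99, 10.53 and 10.84 after 12 h.

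Tpm4, a tropomyosin of non-muscle cells, was at 10.98, 10.76 and 10.83 in the day 3 controls and at 10.74, 10.81 and 10.78 after 24 h (-0.08 ± 0.146). On day 2.5 it was at 10.78, 10.39 and 10.64 in the controls and at 10.80, 10.45 and 10.77 after 12 h. Both pairs of groups overlapped, and neither difference passed.

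Tpm1, the tropomyosin gene that is spliced into muscle and non-muscle forms, was at 10.27, 10.25 and 10.39 in the day 3 controls and at 9.80, 10.11 and 10.11 after 24 h. On day 2.5 it was at 10.16, 9.80 and 10.02 in the controls and at 9.87, 9.82 and 9.96 after 12 h. The day 3 groups did not overlap, but the difference of -0.30 ± 0.141 did not pass (adjusted p = 0.315). Its probe set sums over the gene, so a change of splice form was not measured.

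Vcl, the vinculin of focal adhesions, was at 9.11, 8.97 and 8.91 in the day 3 controls and at 8.90, 8.39 and 8.02 after 24 h. All induced arrays lay below all controls, and the difference of -0.56 ± 0.219 did not pass (adjusted p = 0.206). With the replicate block it passed (adjusted p = 0.0245), as it did without replicate 1 (-0.73, adjusted p = 0.0211) and without the 24 h array of replicate 1 (-0.79, adjusted p = 0.0251). Flna, the actin crosslinker filamin A, differed by -0.45 ± 0.194 (adjusted p = 0.262) and Cnn2, the calponin of non-muscle cells, by -0.51 ± 0.177 (adjusted p = 0.142), both without overlap between the groups. Tpm2 and Cnn3 differed by -0.07 and -0.19.

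**Figure D3:**
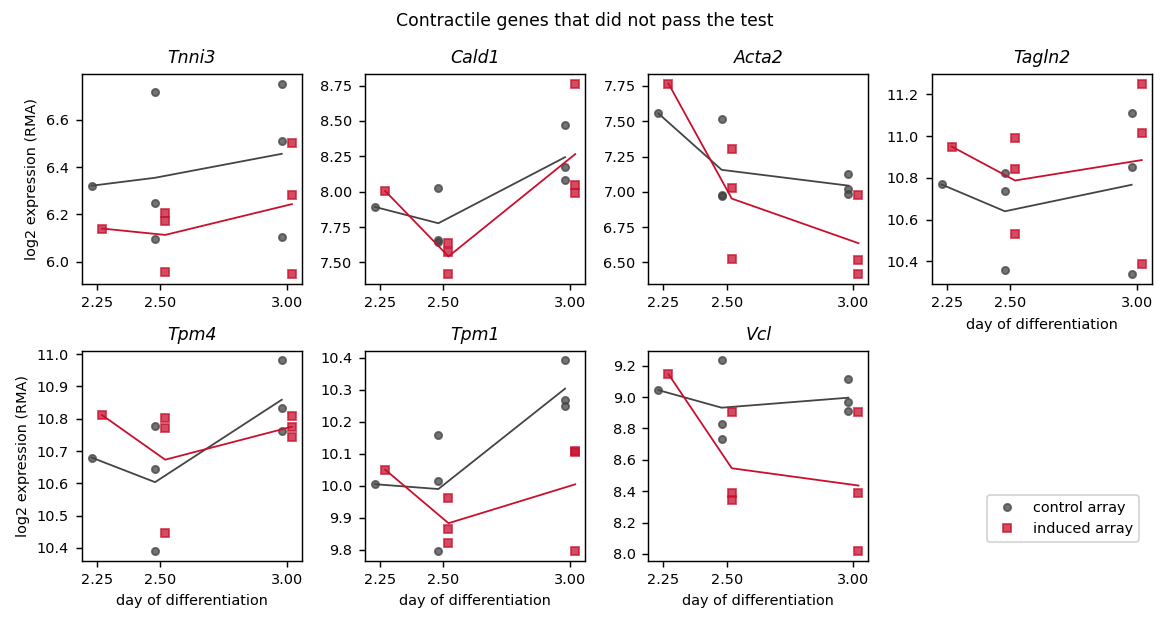
Log2 expression (y axis, its range set for each panel) against day of differentiation (x axis) for 7 contractile genes that passed no test; circles are control arrays, squares induced arrays, and lines join group means. Control and induced arrays of Tagln2, Tpm4, Cald1 and Tnni3 overlap on day 3, whereas those of Vcl and Tpm1 do not.

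The genes were also followed between the days within each arm. These comparisons share arrays with the induction effects and are no separate evidence. Between the control days 1 of 33 genes rose (Myl7) and 0 fell in limma, against 0.562% of all genes higher and 0.196% lower (0.757% in either direction), with 6 higher and 1 lower at an unadjusted p under 0.05. Between 12 h and 24 h of induction 2 fell (Cnn1 and Myl9) and 0 rose, against 1.25% of all genes lower and 0.557% higher (1.81% in either direction), with 4 lower and 1 higher at an unadjusted p under 0.05. Control arrays of the days did not overlap for 6 of the 33 genes, higher on day 3 (6.12% of all genes), and for 2, lower (7.49% of all genes). Between 12 h and 24 h of induction they did not overlap for 1 gene, higher (5.85% of all genes), and for 5, lower (9.57% of all genes). The induction effect changed from 12 h to 24 h for 2 genes, Myl7 and Cnn1 (-1.27 ± 0.246, limma adjusted p = 0.0377), both towards lower values, against 0.326% of all genes lower and 0.1% higher (0.426% in either direction). The change of Cnn1 was not called in 10 of the 15 fits that left out arrays, among them those without replicate 2 (-1.09, adjusted p = 1.00) and replicate 3 (-1.36, adjusted p = 0.500). For Actc1 the effects differed by -1.17 and did not pass (adjusted p = 0.184).

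The lines were compared in these responses. The test of a different induction effect in iB1 and iEGS called 0 of the 33 genes (limma, smallest adjusted p = 0.943) and 0 of all genes (0% of 19938). Under an unadjusted p of 0.05 were 0 of the 33 genes and 519 of all 19938 genes. With 1 iB1 array per group this does not show that the lines respond alike.

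The genes with a CArG box in their promoter window were set beside those without as a description, chosen with the falls known. Over all genes 3.43% were called lower at 24 h, 50.7% had a change below 0 and 10.9% had all induced arrays below all controls. At 24 h all 6 holders had a change below 0, with 3 past the test, a median of -0.86 and a range of -2.41 to -0.26. The 24 genes with a window but no exact match had 12 changes below 0 and 3 past the test (Cnn1, Tnnc1 and Myl4). Their median was -0.03 and their range -1.88 to 0.29. Boxes with a mismatch were not searched in these windows. At 12 h the medians were -0.32 and -0.09. All induced arrays were below all controls at 24 h for 5 of the 6 holders and 7 of the 24 others. Cnn1 fell without an exact match in its window, and Myl3, with a match, did not pass. The sets also differed in signal. All 6 holders were above the 40th percentile of all genes. Of the others, Myl4, Myh6, Myh7, Mylk, Tnni1, Myl2, Ttn and Mybpc3 were below it. Over all genes not below it, the median change at 24 h was -0.10. The part of signal level in the difference between the sets was not tested.

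**Figure D4:**
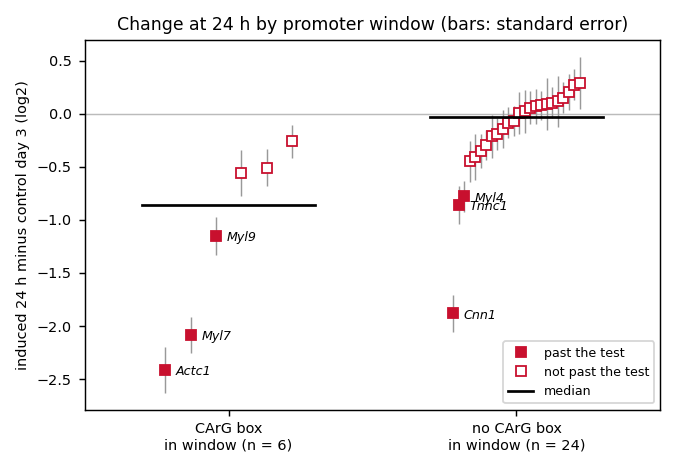
Change in log2 expression at 24 h of induction (y axis, induced minus control of day 3) for the 6 contractile genes with a CArG box in their promoter window and the 24 without one; bars are limma standard errors, filled squares passed the test, and black lines are medians (-0.86 and -0.03). Actc1, Myl7 and Myl9 are the holders that passed. Boxes are exact matches, and boxes with a mismatch were not searched.

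Further genes of the same systems were taken from lists. Of 39 measured genes of the sarcomere and sarcoplasmic reticulum outside the 33, 2 fell (5.13%) and 1 rose (2.56%) at 24 h, near the 3.43% and 2.03% of all genes, and 0 passed at 12 h in limma (1 higher and 1 lower at an unadjusted p under 0.05). The fallers were Pdlim3, a Z line protein that binds actinin (-1.63 ± 0.17, adjusted p = 2.55e-05), and Actn3, the actinin of fast muscle (-0.57 ± 0.129, adjusted p = 0.0158), and the riser was Tnnt3, the troponin T of fast muscle (0.67 ± 0.137, adjusted p = 0.00822). Pdlim3 was at 8.33, 8.32 and 8.0 in the day 3 controls and at 6.56, 6.91 and 6.30 after 24 h. The median change of this list at 24 h was 0.13. Of 36 smooth muscle and actin cytoskeleton genes outside the 33, 1 fell at 12 h (2.78%, against 0.577% of all genes) and 0 rose, and 3 fell (8.33%) and 1 rose (2.78%) at 24 h, against 3.43% and 2.03% of all genes, with a median of -0.07 at 24 h.

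Itga8, which fell at both times, encodes the integrin alpha chain of smooth muscle and mesenchyme. It was at 7.06, 6.47 and 6.50 in the day 3 controls and at 4.09, 4.05 and 4.13 after 24 h, a fall of 2.59 ± 0.208 (limma adjusted p = 2.19e-06), after a fall of 1.19 ± 0.208 at 12 h (adjusted p = 0.00641). Its induced arrays at both times, at 4.05 to 4.17, were below the 40th percentile of all genes, at low signal, so no fold is given. In the controls it rose by 1.32 ± 0.208 between the days (adjusted p = 0.00629), as did Tgfb1i1 (0.97 ± 0.178, adjusted p = 0.0172), which encodes the focal adhesion adaptor Hic-5. Zyx, the focal adhesion protein zyxin, fell by 0.95 ± 0.212 at 24 h (adjusted p = 0.0140). Ezr, ezrin, fell by 0.82 ± 0.168 (adjusted p = 0.00810), and Msn, moesin, rose by 0.77 ± 0.18 (adjusted p = 0.0197). In the 15 fits that left out arrays, the 24 h falls of Itga8 and Pdlim3 were called each time. Without replicate 2 and without replicate 3 the calls at 24 h of Actn3, Tnnt3, Zyx, Ezr and Msn were lost (adjusted p = 0.0885 to 0.368), as were those of Itga8 at 12 h and of Itga8 and Tgfb1i1 between the control days (0.105 to 0.757). Tnnt3 (0.0573) and Zyx (0.0581) were also lost without replicate 1. Single day 3 controls also ended calls at 24 h, that of replicate 1 for Actn3 and Zyx, of replicate 2 for Zyx and Msn, and of replicate 3 for Actn3 and Msn. The 24 h array of replicate 2 did so for Actn3. Tgfb1i1 was also lost without the day 3 control of replicate 1 or 2 and without the day 2.5 control of replicate 2 or 3.

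Of 13 measured regulators of muscle genes from the SRF, MEF2 and TEAD families and their partners, 2 fell (15.4%, against 3.43% of all genes) and 0 rose (against 2.03%) at 24 h in limma, with 2 lower and 2 higher at an unadjusted p under 0.05. Srf itself was at 8.02, 7.97 and 7.65 in the day 3 controls and at 7.25, 7.55 and 7.01 after 24 h, a fall of 0.61 ± 0.163 or 1.53-fold (adjusted p = 0.0413). The call of Srf was lost in 12 of the 15 fits that left out arrays (adjusted p up to 0.215), among them the fit without the 24 h array of replicate 3 (-0.48, adjusted p = 0.141). It was kept without the day 2.5 control of replicate 1, the day 3 control of replicate 3 or the 24 h array of replicate 2. The Srf call was also lost with the compared groups alone (adjusted p = 0.164) and with array weights (0.103). With arrays centred on their median it was just lost (0.05001). Tead2, a TEAD factor of early embryos, fell by 0.78 ± 0.121 (adjusted p = 0.000885), a call lost without replicate 3 (-0.75, adjusted p = 0.0615). At 12 h 0 of the 13 passed in limma, with 2 lower and 1 higher at an unadjusted p under 0.05. Between 12 h and 24 h of induction Pdlim3 and Actn3 fell (5.13% of their list), as did Ezr (2.78%) and Tead2 (7.69%). Over all genes 1.25% were lower and 0.557% higher there, and 0 genes of these lists rose. In the 15 fits that left out arrays these calls were lost in 3 (Pdlim3), 2 (Actn3), 7 (Ezr) and 14 (Tead2).

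Markers of other cells were set beside these results. Feeder fibroblasts express Acta2, Tagln, Cnn1 and Myl9. The mean level of 22 fibroblast genes lay between 4.83 and 5.2 on the induced 24 h arrays and between 4.83 and 5.06 on the day 3 controls, and the list held both low and expressed genes. Lum and Postn did not exceed 2.92 and 4.05 on any of the 14 arrays, and Col1a1 and Col1a2 lay between 4.90 and 5.87 and between 5.46 and 6.63. Thy1 lay between 6.81 and 9.03 and Ccn2 between 6.91 and 8.29. Of these 22 genes 1 rose at 24 h (Thy1, 4.55%) and 0 fell in limma, against 2.03% of all genes higher and 3.43% lower. At an unadjusted p under 0.05, 2 were higher and 0 lower. Of 7 genes of the primitive streak and early mesoderm, 4 fell at 12 h (0.577% of all genes) and 7 at 24 h (3.43% of all genes). Between the control days 4 of the 7 rose (0.562% of all genes). Actc1 fell at both times and Myl7 at 24 h, and Myl7 rose between the control days while Actc1 did not pass there. The mean level of the 7 genes was 7.02 to 7.70 in the day 2.5 controls and 8.68 to 9.02 in the day 3 controls, and 6.20 to 6.46 after 12 h and 5.55 to 6.02 after 24 h of induction, and their part in the contractile results was not tested. Of 8 ES cell genes 2 fell at 12 h (0.577% of all genes) and 4 at 24 h (3.43%), with 0 rises (0.813% and 2.03%). Their mean level was 8.46 to 8.88 in the day 3 controls and 7.44 to 8.13 after 24 h, and its part in the contractile results was not tested. Of 10 endothelial genes 6 rose at 24 h (2.03% of all genes) and 0 fell (3.43%). They had a mean of 6.90 to 7.51 after 24 h and 4.97 to 5.13 in the day 3 controls.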

How the data were processed

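RNA from embryoid bodies was amplified and hybridised to Affymetrix arrays, 1 per sample. The deposited values are RMA log2 values for 35556 probe sets. The authors used Affymetrix Expression Console, as the submitters' processing notes list, and neither its version nor the set of arrays normalized in one run is stated in these sources. RMA draws arrays to a common distribution and understates changes of dim genes. There are no counts behind such signals, and precision is limited by how many arrays there are.

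Probe sets with 1 symbol in the platform annotation (21789, with 1621 holding several symbols and 12146 not listed) were matched by gene identifier to the RefSeq table of GRCm38.p6, which held 21698 and changed 0 symbols. Per gene the probe set of highest mean over 14 arrays was kept, giving 19938 genes. Each of the 33 genes had 1 such probe set. The array's own genome build is not given in the sources used here; coordinates are those of the RefSeq promoter windows.

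The 12 arrays in groups of 3 shared one limma fit (version 3.58.1, R 4.3.3, group means, 8 residual and 6.05 prior degrees of freedom), with p-values adjusted over all genes and checked on simulated data. Arrays of the same replicate number deviated together from their group means (correlations 0.573, 0.344 and 0.262 on day 2.5, and 0.517, 0.157 and 0.261 on day 3). Numbers were therefore taken to pair arrays in the differences given per replicate and in the replicate block. The main fit had no replicate term, so its p-values are unpaired. The design text speaks of 3 independent experiments without tying them to numbers. On day 3 replicate 2 of the controls correlated more with replicate 3 of the induced arrays (0.375). P-values set group differences against the spread between arrays within groups, as moderated by limma. This spread includes the line, as replicates 1 and 2 are iEGS and replicate 3 is iB1.

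The genes and lists were chosen with earlier results of these data known. Genes that passed a test, and up to 3 genes of highest mean in each class, are given on every array; from other lists up to 4 rises and 4 falls per comparison are named. Acta2, Vcl and the list genes given on every array were chosen after their values were seen, as were Smtn, Des, Flna and Cnn2. Alternatives were the replicate block, the compared groups alone, quantile normalization again, arrays centred on their median, dim genes left out, the mean of a gene's probe sets, a variance trend, array weights, and leaving out each replicate number or array. Protein sequences were not used here.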

Additional observations from a re-analysis of the deposited data

Results flagged for a closer look

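The induction effect differed between 12 h and 24 h, by the test of the difference itself, for 2 contractile genes. For Myl7 the effect at 24 h was lower by 2.18 on the log2 scale (a difference of -2.18, limma adjusted p = 0.00107), with induced minus control at 0.05, 0.32 and -0.08 in replicates 1, 2 and 3 at 12 h and at -2.34, -1.90 and -2.0 at 24 h. For Cnn1 the difference was -1.27 (limma adjusted p = 0.0377), with -0.87, -0.36 and -0.61 at 12 h and -1.96, -1.99 and -1.69 at 24 h. Myl7 rose in the controls between these days and Cnn1 did not pass there.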

How the results depend on the processing

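The direction of each of the 13 gene results that passed the test was kept in all 296 values under alternatives, of which 37 no longer passed. For 16 results of listed genes outside the 33 it was kept in all 368 values, of which 88 no longer passed. The compared groups alone lost the 24 h calls of Actn3, Zyx, Msn and Srf. Array weights lost those of Tnnt3, Actn3, Ezr, Msn and Srf, and centring on the median lost Msn and Srf. Between 12 h and 24 h of induction, Pdlim3, Actn3, Ezr and Tead2 were lost with the compared groups alone and with array weights. Quantile normalization again lost Tead2 there. The number of contractile genes lower at 12 h (1) was 2 with the replicate block and 4 with array weights, and 0 to 1 when an array or replicate was left out. At 24 h it was 7, and 4 with array weights (Tnnc1, Myl4 and Tagln lost), and 3 to 8 on leaving out. For the change of effect it was 2, then 1 with quantile normalization again and with array weights, both without Cnn1, and 0 to 2 on leaving out. The number higher between the control days was 1, then 2 with the replicate block, quantile normalization again or dim genes left out (Tnnc1 added each time), 4 with array weights, and 0 to 2 on leaving out. Between 12 h and 24 h of induction 2 were lower, 3 with the replicate block and with quantile normalization again (Myl7 added), 1 with array weights, and 0 to 2 on leaving out; 0 were higher, and 1 with the replicate block and with quantile normalization again (Cald1). The cause was not tested, beside the fewer arrays of the fits that leave some out. The replicate block changed no other call than those given beside the results for Cnn1, Vcl, Tnnc1, Myl7 and Cald1.

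Over all genes, 277 were called at 12 h, 441 with the block, 1885 with array weights and 80 to 366 on leaving out. At 24 h these were 1088, 1565 (669 with the compared groups alone), 467 and 392 to 1889. For the change of effect they were 85, 163, 48 and 2 to 109, with 129 after quantile normalization again. For the control days they were 151, 344, 1350 and 17 to 238, and between 12 h and 24 h of induction 360, 742, 89 and 21 to 727 (100 with the compared groups alone). The array weights did not converge to their tolerance. At 6 h, where no test was made, 0 contractile genes reached 2-fold, and for the line 0 passed the test, under each alternative run. The low signal of 10 of the 33 genes limits what could be seen.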

Other observations

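Ezrin and moesin, closely related proteins that tie actin to the cell membrane, moved in opposite directions. Ezr was at 8.79, 8.62 and 8.56 in the day 3 controls of replicates 1, 2 and 3 and at 8.13, 7.63 and 7.75 after 24 h. Msn was at 9.78, 9.57 and 9.68 in these controls and at 10.85, 10.31 and 10.17 after 24 h. For both the groups did not overlap. With array weights neither passed (limma adjusted p = 0.145 for Ezr and 0.0932 for Msn). Msn also did not pass with arrays centred on their median (adjusted p = 0.0728) or with the compared groups alone (0.0822). Tnnt3, the troponin T of fast skeletal muscle, was at 5.74, 5.86 and 5.85 in the day 3 controls and at 6.49, 6.45 and 6.50 after 24 h, again without overlap. With array weights Tnnt3 did not pass (limma adjusted p = 0.216). Ezr, Msn and Tnnt3 were singled out after their values were seen.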
